A study of Mus musculus with 12 samples.

Results

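The vessels of the brain and the membranes around it are described here by 33 genes, a set chosen by name that holds 18 genes of endothelial cells, 8 of mural cells (pericytes and smooth muscle), 2 of the vascular basement membrane and 5 of fibroblasts. A gene was included by its symbol alone, and the 59 RefSeq transcripts of these symbols, among 35840 listed, were summed, which gave 33 of 24452 symbols. All 33 passed the low-count filter, beside 14739 genes in all. Somatosensory cortex of male P7 mouse pups on a C57Bl/6 background was measured with stranded total RNA-Seq in 4 groups of 3 libraries. WT saline and WT ethanol libraries came from pups with intact p53, and KO saline and KO ethanol libraries from their p53 knockout counterparts (Trp53tm1Tyj, lost in every cell of the body), all born to heterozygous parents. Ethanol, or saline for the controls, was injected intraperitoneally, and tissue was taken 8 hours later. The study asked which ethanol effects need p53.

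Brain endothelial cells line the capillaries, seal them with tight junctions and carry nutrients through selective transporters, which together form the blood-brain barrier. Pericytes and smooth muscle cells wrap the endothelium, and both share a basement membrane rich in type IV collagen. Fibroblasts of the immature brain lie mainly in the meninges and around larger vessels, where they lay down the fibrillar collagens, decorin and lumican. In whole tissue a lower level of a gene can come from fewer cells of a type or from less of its RNA per cell, and these cannot be told apart here.

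Total counts ran from 719735 to 17066392 per library, and the 33 genes took between 0.0546% and 0.165% of them. A value is given as CPM (counts scaled to 1e6 per library, after TMM factors), and 1 count was worth between 0.0566 and 1.67 CPM. WT saline replicate 1 and the library labelled KO ethanol replicate 1 were the shallowest and the only 2 whose names open with another letter (L) than the rest, and 3 members were at 0 in each. The share of Trp53 counts on transcript NM_001127233 ran from 7.01% to 23.1% over the WT libraries and from 48.3% to 70.6% over 5 KO libraries, but it was 7.01% of 14 counts in the library labelled KO ethanol replicate 1. The calls that rest on this library are therefore also given without it, as are some but not all of the other values. WT saline replicate 2 stood apart by its TMM factor of 0.564, against 0.832 to 1.23 in the others. The study's methods describe separate mice in each group, but the labels do not tie a library to a pup or a litter, and litter could not be taken into account.

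Markers of all 4 classes were present. Per length, in the deposited RPKM (a read level per transcript length, whose sorted values nearly coincide between libraries, so that depth was not the only scaling), the highest medians over the 12 libraries were those of Cldn5 (25.7), a tight junction protein, Rgs5 (25.2), a pericyte regulator of G protein signaling, and Vtn (21.4), vitronectin, which pericytes secrete in brain. Egfl7 (18.8), a secreted endothelial protein, and Mfsd2a (16.2), a lipid transporter of the barrier, followed. The lowest were Anpep (0.554), a pericyte peptidase, and Sox17 (0.774), an arterial transcription factor. Single libraries ranged widely around these medians, with Cldn5 between 13.6 and 48.7 RPKM and Rgs5 between 14.4 and 50.4, so the order of the first 3 did not exceed their spread.

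**Figure D1:**
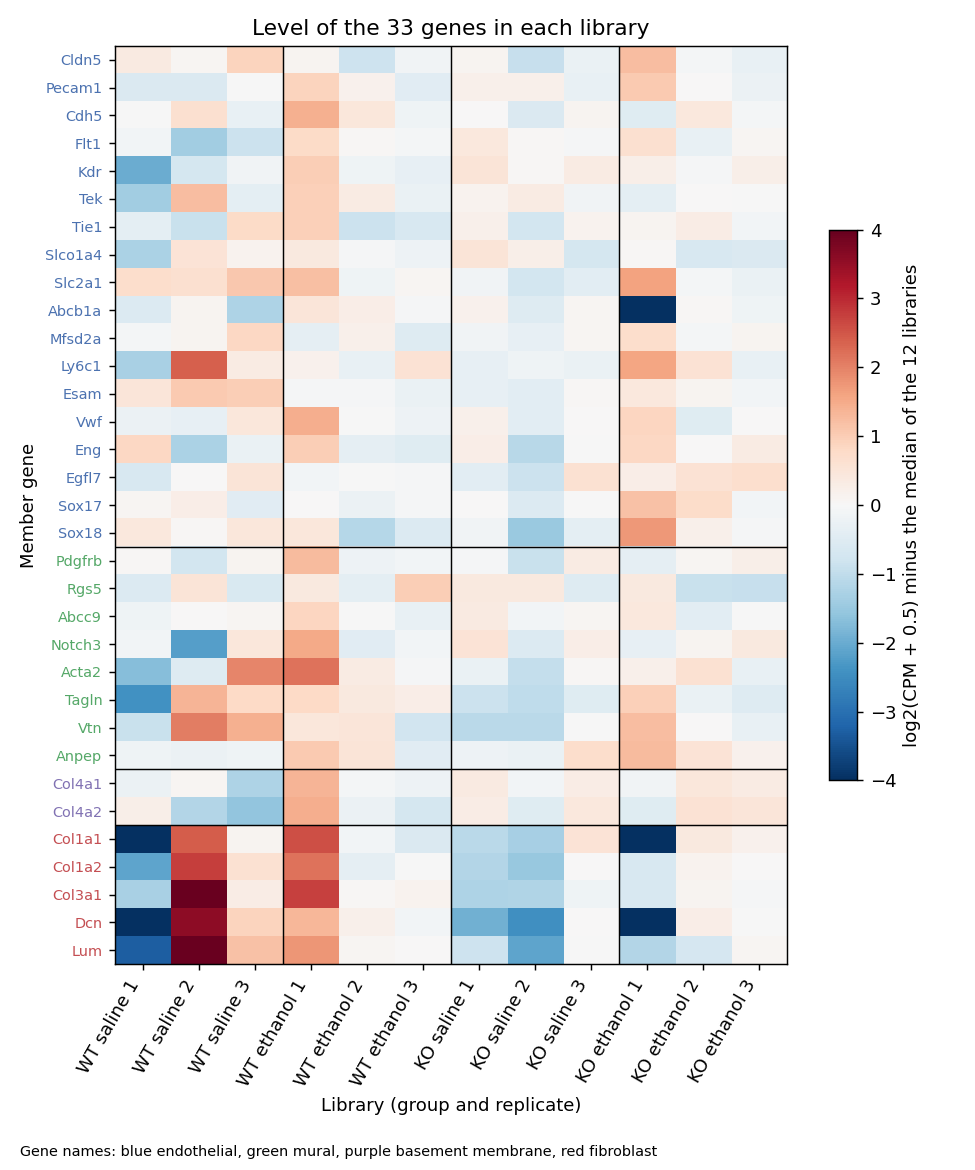
Level of the 33 genes (rows, by class) in the 12 libraries (columns, by group), as log2(CPM + 0.5) minus the median over the libraries. The 5 fibroblast genes at the bottom were highest in WT saline replicate 2 and WT ethanol replicate 1, and WT ethanol replicate 1 held the highest level of 14 members.

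Levels differed widely between libraries. The highest level of a member lay in WT ethanol replicate 1 for 14 genes, in WT saline replicate 2 for 10 and in the library labelled KO ethanol replicate 1 for 6, which left 3 genes for the other 9 libraries. The summed level of the 18 endothelial genes varied 2.41-fold between the highest and the lowest library, and that of the 8 mural genes 2.58-fold. It varied 7.06-fold for the basement membrane pair and 69.7-fold for the fibroblast genes. Only 2 of the 5 fibroblast genes had a count in every library. Their lowest sum was that of the shallow WT saline replicate 1, where 3 of them were at 0, so the ratio is uncertain.

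Lists of other cell types varied between libraries too, and not all with the same ones. The summed level of 23 further meningeal and fibroblast genes was 1489.9 CPM in WT saline replicate 2 and 683 CPM in WT ethanol replicate 1, and between 149 and 495 CPM elsewhere, and 14 of the 23 had a count in every library. The 10 choroid plexus genes summed to 5458 CPM in WT ethanol replicate 1, 2532 CPM in KO saline replicate 1 and 2367 CPM in KO ethanol replicate 3, and to between 47.3 and 511 CPM in the other 9 libraries. Only 3 of these 10 genes had a count in every library, and Ttr was at 0 in the library labelled KO ethanol replicate 1. The 11 microglial genes were highest in WT saline replicates 3 (747 CPM) and 2 (578 CPM). The 8 red blood cell genes, 7 of them with a count in every library, summed to 458, 2774 and 900 CPM in WT saline, to 1331 CPM in the library labelled KO ethanol replicate 1, and to between 60.9 and 298 CPM elsewhere. The part of these other tissues in the results below was not tested.

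**Figure D2:**
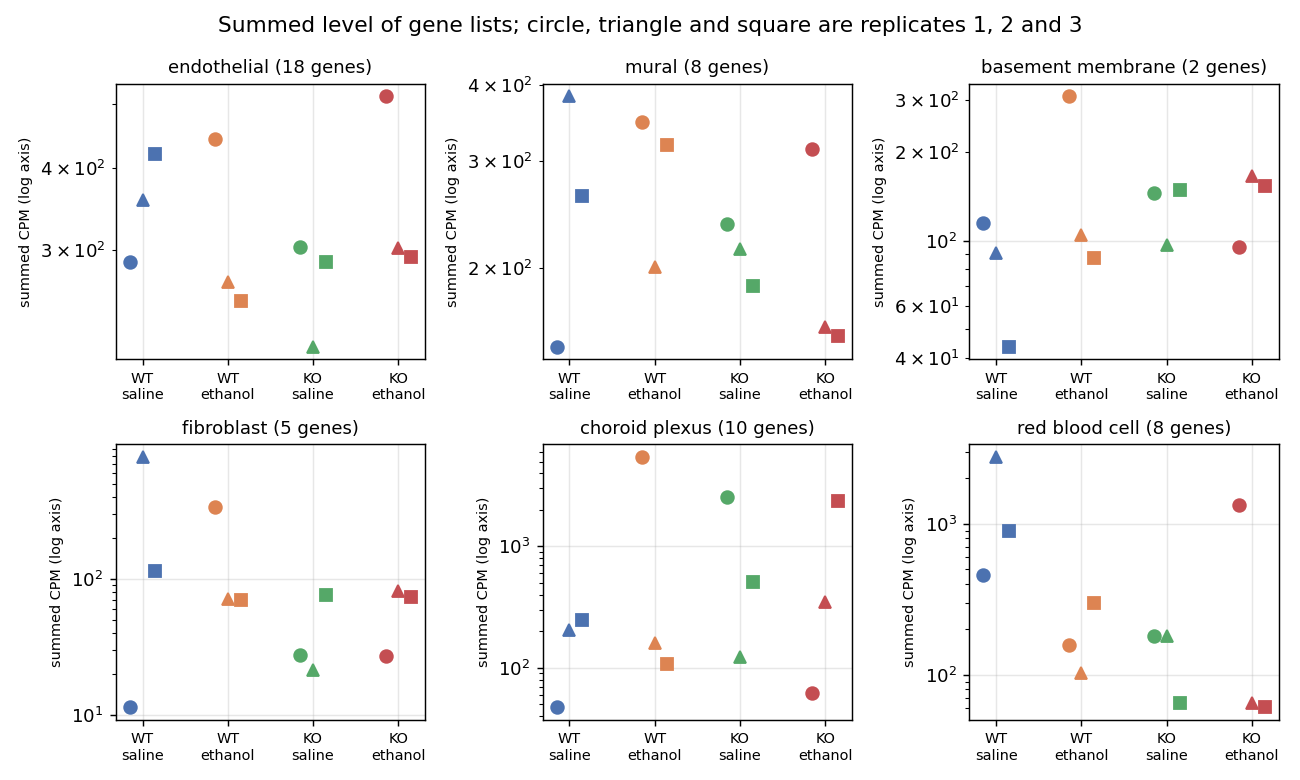
Summed CPM (log axis) of the 4 member classes and of the choroid plexus and red blood cell lists, by group. Each point is a library, and circle, triangle and square mark replicates 1, 2 and 3. The fibroblast sum was 788 CPM in WT saline replicate 2 and 11.3 CPM in WT saline replicate 1 of the same group.

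Each comparison was a contrast of one edgeR quasi-likelihood model over the 12 libraries, with p-values adjusted over 14739 genes and a gene called at an adjusted p under 0.30. The study used this level for ethanol in WT mice, for genotype and for the interaction, but set no adjusted cutoff for ethanol in KO mice. In WT ethanol versus WT saline, 4 of the 33 members (12.1%) were called, beside 22.5% of all genes. Flt1, Kdr and Col4a1 were higher (3 members, beside 12.1% of all genes) and Esam was lower (1 member, beside 10.4%). In KO saline versus WT saline, 11 members (33.3%) were called beside 25.8% of all genes, 2 of them higher (12.4% of all genes) and 9 lower (27.3%, beside 13.4%). The 2 contrasts share the WT saline libraries. Without TMM factors the median of all genes moved from 0.06 to 0.49 in the first contrast and from 0.04 to 0.49 in the second, and 10 members were called higher (24.1% of all genes) and 0 lower (3.42%) in the first, and 4 higher (22.9%) and 4 lower (4.61%) in the second. On the TMM scale the higher genes in KO saline were Flt1 and Kdr, and the lower ones were Slc2a1, Ly6c1, Esam, Tagln, Vtn, Col1a2, Col3a1, Dcn and Lum.

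No member was called in KO ethanol versus KO saline or in KO ethanol versus WT ethanol, where 0% and 0% of all genes were. At an unadjusted p under 0.05, 0 members passed in either, beside 3.15% and 3.24% of all genes. DESeq2 and limma called 0 members as well, beside at most 0.0204% of all genes. Without the library labelled KO ethanol replicate 1 the members called stayed at 0, beside 0% of all genes in both comparisons. In KO ethanol versus WT ethanol 1 member then had an unadjusted p under 0.05, and the share of all genes at that level was not counted for this fit. For the Genotype x Treatment interaction, Esam and Vtn were called, 2 members beside 11.1% of all genes. Neither was called without that library, when 0.233% of all genes were.

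At an adjusted p under 0.05, 0 members passed in WT ethanol versus WT saline (0.0746% of all genes) and in KO saline versus WT saline (0.0543%). At an unadjusted p under 0.05, the counts were 2 in WT ethanol versus WT saline (18.3% of all genes), 10 in KO saline versus WT saline (19.6%) and 4 for the interaction (15.2%), the last being Cldn5, Esam, Sox18 and Vtn. Without the library labelled KO ethanol replicate 1 the count for the interaction was 2, and the share of all genes at that level was not counted for this fit. The 3 libraries of one group lay wholly above or below those of the other for 2 members in WT ethanol versus WT saline (19.6% of all genes) and for 5 in KO saline versus WT saline (22.9%). It was so for 1 member in KO ethanol versus KO saline, Sox18 (10.8% of all genes), and for 1 in KO ethanol versus WT ethanol, Egfl7 (12.7%).

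**Figure D3:**
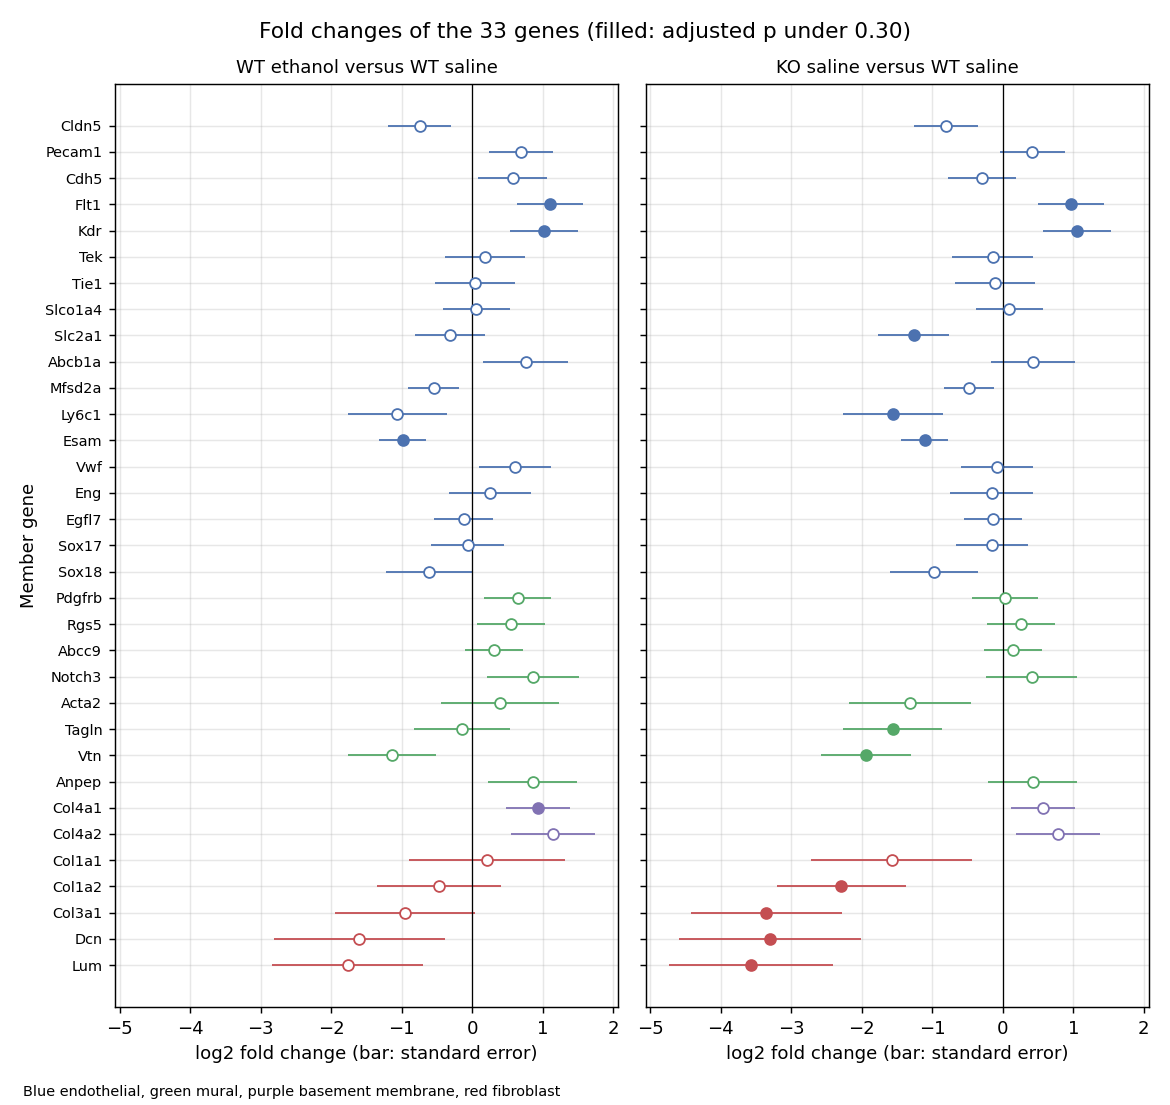
Log2 fold change of each member with its standard error in the 2 comparisons in which members were called, colored by class, filled where the adjusted p was under 0.30. In KO saline versus WT saline all 5 fibroblast genes lay below 0, with 4 of them called.

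The VEGF receptors Flt1 and Kdr were both called higher in WT ethanol and in KO saline than in WT saline. Kdr is the main signaling receptor for VEGF-A, and Flt1 binds the same ligand and limits its action. Flt1 (chr5:147562196-147725988, mm10) was at 8.74, 3.31 and 5.05 CPM in WT saline, 16.6, 9.84 and 8.89 in WT ethanol, 13.0, 9.96 and 9.22 in KO saline, and 15.04, 7.58 and 10.1 in KO ethanol libraries, in the order of replicates 1, 2 and 3 that is kept below. All 3 WT saline libraries were below all WT ethanol and KO saline libraries, though the highest of them nearly reached the lowest WT ethanol library. On the log2 scale it was higher by 1.11 ± 0.47 (value ± standard error, adjusted p = 0.242) in WT ethanol and by 0.97 ± 0.47 (adjusted p = 0.269) in KO saline. Kdr (chr5:75933270-75978428) was at 3.60, 9.37 and 14.1 CPM in WT saline, 31.0, 13.9 and 12.2 in WT ethanol, 22.4, 16.2 and 19.8 in KO saline, and 18.4, 14.9 and 18.3 in KO ethanol. The WT ethanol libraries overlapped those of WT saline, and the KO saline libraries did not. Its log2 fold changes were 1.02 ± 0.48 (adjusted p = 0.274) in WT ethanol and 1.05 ± 0.48 (adjusted p = 0.247) in KO saline.

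The other surface receptors of the endothelium were not called in any comparison. Tek and Tie1, the angiopoietin receptor and its partner, differed by 0.18 ± 0.57 and 0.04 ± 0.57 on the log2 scale in WT ethanol and by -0.15 ± 0.57 and -0.11 ± 0.57 in KO saline. Eng, a TGF-beta co-receptor, differed by 0.25 ± 0.58 and -0.16 ± 0.58. These errors leave room for changes as large as those of the VEGF receptors, and without WT saline replicate 2 Tek was at 1.18 ± 0.52 in WT ethanol and turned to 0.88 ± 0.51 in KO saline, without a call. Over the 12 libraries Tek ran from 3.09 to 21.9 CPM (median 8.94), with WT saline replicate 2 highest and replicate 1 of the same group lowest. Tie1 ran from 5.70 to 21.6 CPM (median 10.96) and Eng from 5.88 to 30.01 CPM (median 14.99), both highest in WT ethanol replicate 1 and both with group ranges that overlapped.

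Of the junction and adhesion genes, Esam was the member with the smallest adjusted p in WT ethanol versus WT saline. Esam encodes an immunoglobulin-like adhesion molecule of endothelial tight junctions. Esam (chr9:37528089-37538319) was at 24.2, 36.6 and 34.4 CPM in WT saline, 16.9, 16.9 and 14.5 in WT ethanol, 13.6, 12.9 and 17.8 in KO saline, and 23.4, 18.9 and 15.9 in KO ethanol. On the TMM scale every library of the other 3 groups was below every WT saline library, narrowly so for the library labelled KO ethanol replicate 1. Without TMM factors WT saline replicate 2 no longer lay above all KO saline and KO ethanol libraries. The log2 fold change was -0.99 ± 0.34 (adjusted p = 0.208) in WT ethanol and -1.11 ± 0.34 (adjusted p = 0.176) in KO saline, and the KO ethanol libraries overlapped those of KO saline. On the scale without TMM factors the values were -0.49 (adjusted p = 0.449) and -0.60 (adjusted p = 0.355), without a call. The interaction was 1.35 ± 0.48 (adjusted p = 0.258), and 1.22 ± 0.45 (adjusted p = 0.490) without the library labelled KO ethanol replicate 1.

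Cldn5 (chr16:18776847-18778262), which encodes the principal claudin of brain endothelial tight junctions, was at 55.02, 45.02 and 79.9 CPM in WT saline, 45.7, 23.5 and 38.2 in WT ethanol, 46.1, 22.1 and 35.2 in KO saline, and 100.3, 40.3 and 34.8 in KO ethanol. The groups overlapped, and the highest value was that of the shallow library labelled KO ethanol replicate 1. The log2 fold changes were -0.74 ± 0.45 (adjusted p = 0.377) in WT ethanol and -0.80 ± 0.45 (adjusted p = 0.331) in KO saline. Pecam1 and Cdh5, the adhesion molecules that hold neighboring endothelial cells together, had values of 0.70 ± 0.46 and 0.57 ± 0.49 in WT ethanol and 0.42 ± 0.46 and -0.30 ± 0.49 in KO saline. Pecam1 ran from 9.26 to 30.1 CPM (median 14.2) over the 12 libraries and Cdh5 from 6.21 to 26.1 CPM (median 9.45). None of the 3 was called.

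Among the barrier transporters, Slc2a1 was called lower in KO saline and the others were not called. Slc2a1 (chr4:119108745-119137329), the glucose transporter GLUT1, was at 48.3, 46.3 and 62.6 CPM in WT saline, 68.9, 26.2 and 30.9 in WT ethanol, 26.7, 17.3 and 21.7 in KO saline, and 90.3, 28.1 and 24.4 in KO ethanol. On the TMM scale all 3 KO saline libraries were below the WT saline libraries, and WT ethanol libraries lay on both sides of the latter. Without TMM factors WT saline replicate 2 lay below KO saline replicate 1. The log2 fold change was -1.26 ± 0.50 (adjusted p = 0.203) in KO saline and -0.32 ± 0.50 (adjusted p = 0.746) in WT ethanol. Mfsd2a, the transporter of lysophospholipids with docosahexaenoic acid, differed by -0.54 ± 0.36 in WT ethanol and -0.48 ± 0.36 in KO saline. Slco1a4, an organic anion transporter, differed by 0.06 ± 0.48 and 0.09 ± 0.48. Abcb1a, the drug efflux pump P-glycoprotein, differed by 0.76 ± 0.60 and 0.43 ± 0.60, and its count of 0 in the library labelled KO ethanol replicate 1 allows a level of up to 5.01 CPM. Mfsd2a had the smallest ratio of highest to lowest library among the 4 transporters, running from 27.5 to 70.6 CPM (median 39.9), and every transporter's WT ethanol libraries overlapped those of WT saline. Slco1a4 ran from 5.66 to 21.1 CPM (median 14.5).

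Ly6c1 (chr15:75044018-75048837) is an abundant surface protein of brain endothelium whose near-identical neighbor Ly6c2 could share its reads, so its level is uncertain. It was at 2.57, 38.4 and 8.99 CPM in WT saline, 7.98, 5.62 and 10.7 in WT ethanol, 5.44, 6.09 and 5.75 in KO saline, and 21.7, 10.6 and 5.65 in KO ethanol. WT saline replicate 2 was far above every other library, and WT saline replicate 1 was the lowest of all. The log2 fold change in KO saline was -1.55 ± 0.71 (adjusted p = 0.248), and -0.14 (adjusted p = 0.945) without WT saline replicate 2. The remaining endothelial genes were the secreted Vwf and Egfl7 and the transcription factors Sox17 and Sox18, with log2 fold changes between -0.98 and 0.61 in the 2 comparisons with WT saline and no call. Vwf, von Willebrand factor, ran from 8.84 to 35.6 CPM (median 12.7) and Sox17 from 2.17 to 8.36 CPM (median 3.42). Egfl7 ran from 14.3 to 42.5 CPM (median 26.5), and its KO ethanol libraries (31.8, 39.4 and 42.5 CPM) were all above those of WT ethanol (24.6, 26.0 and 25.7 CPM), at 0.59 ± 0.42 on the log2 scale (adjusted p = 0.982). Sox18 was at 7.71, 5.88 and 7.87 CPM in WT saline and 5.09, 1.70 and 4.13 in KO saline, at -0.98 ± 0.62 (adjusted p = 0.387). These 2 groups did not overlap on the TMM scale but did without TMM factors. In KO ethanol it was at 20.1, 6.55 and 5.39 CPM, above all KO saline libraries, at 1.35 ± 0.65 (adjusted p = 0.999), and 0.72 ± 0.58 without the library labelled KO ethanol replicate 1.

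**Figure D4:**
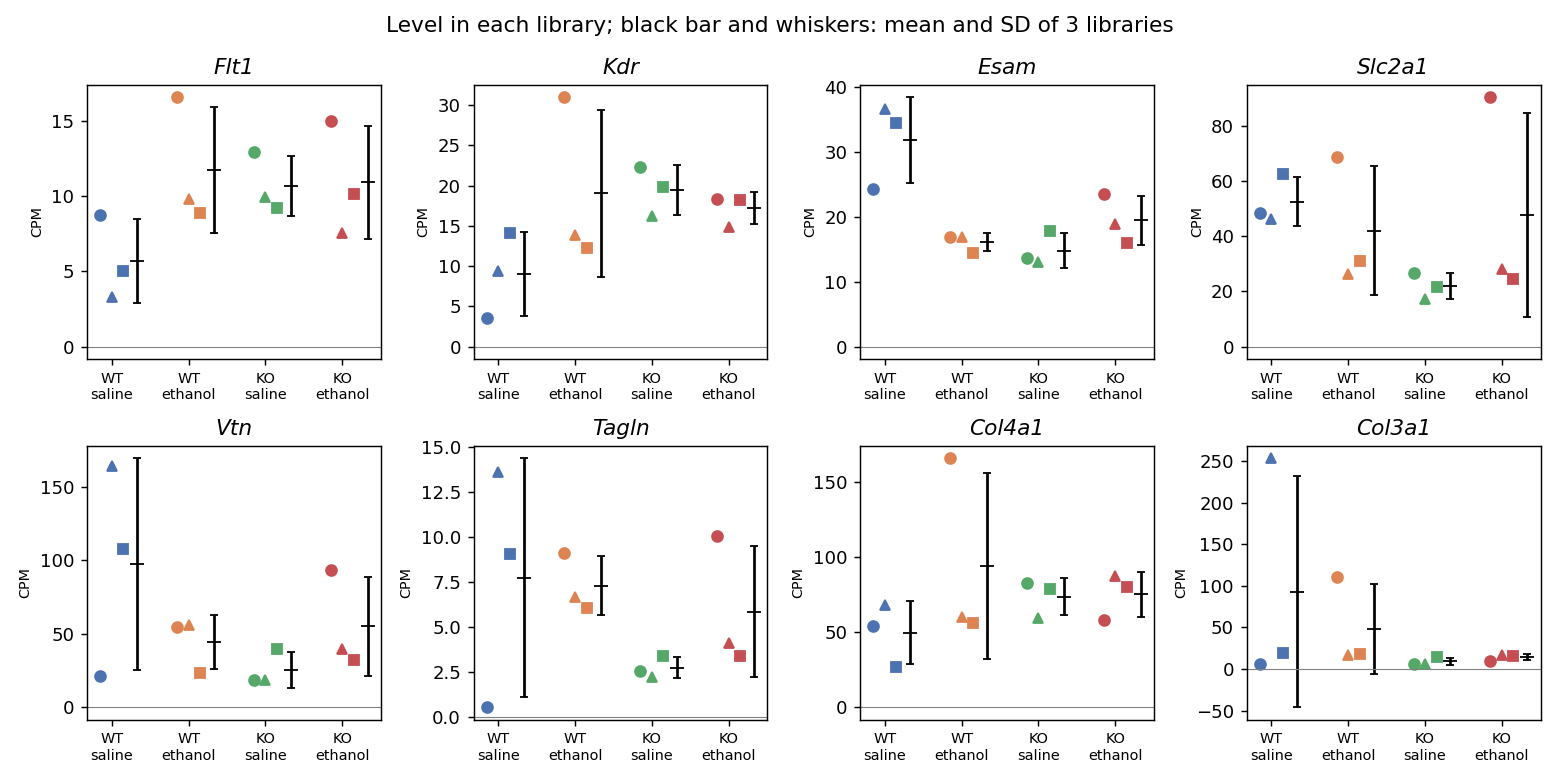
CPM of 8 members in each library, by group, with the mean and SD of 3 libraries in black. On this TMM scale Esam shows all WT saline libraries above the other groups' libraries, whereas the WT saline mean of Col3a1 (93.1 CPM) rests on 1 library at 253 CPM.

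Most mural genes were not called, and the 2 that were, Vtn and Tagln, were lower in KO saline than in WT saline. Pdgfrb encodes the receptor through which endothelial PDGF-B recruits pericytes. Pdgfrb (chr18:61045150-61085067) was at 20.1, 11.6 and 21.2 CPM in WT saline, 47.1, 17.04 and 18.1 in WT ethanol, 18.9, 10.2 and 24.7 in KO saline, and 15.04, 20.7 and 23.0 in KO ethanol. Apart from WT ethanol replicate 1 the 4 groups covered the same range. The log2 fold changes were 0.65 ± 0.47 (adjusted p = 0.465) in WT ethanol and 0.03 ± 0.47 (adjusted p = 0.979) in KO saline. Rgs5, Abcc9 (a subunit of the pericyte potassium channel), Notch3 (the Notch receptor of mural cells) and Anpep differed by 0.31 to 0.86 in WT ethanol and by 0.14 to 0.42 in KO saline, with no adjusted p under 0.469. Rgs5 ran from 64.3 to 246 CPM (median 127), highest in WT ethanol replicate 3. Notch3 ran from 2.39 to 37.4 CPM (median 12.8), lowest in WT saline replicate 2 and highest in WT ethanol replicate 1. Abcc9 ran from 8.13 to 20.6 CPM and Anpep from 1.20 to 5.01 CPM, and both overlapped between the groups in each of the 4 pairwise comparisons.

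Vtn (chr11:78499120-78502325) was at 21.1, 164 and 108 CPM in WT saline, 54.9, 55.7 and 23.3 in WT ethanol, 18.5, 18.5 and 39.5 in KO saline, and 93.6, 39.9 and 31.9 in KO ethanol. WT saline replicates 2 and 3 were above every other library, but replicate 1 lay among those of KO saline. The log2 fold change was -1.94 ± 0.64 (adjusted p = 0.177) in KO saline and -1.14 ± 0.63 (adjusted p = 0.334) in WT ethanol. The interaction was 2.19 ± 0.90 (adjusted p = 0.287), and 1.63 ± 0.88 (adjusted p = 0.547) without the library labelled KO ethanol replicate 1. The difference of KO ethanol from KO saline was 1.05 ± 0.64 with that library and 0.49 ± 0.66 without it.

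Tagln and Acta2 encode transgelin and smooth muscle actin, contractile proteins of arteriolar smooth muscle. Tagln (chr9:45929628-45936058) was at 0.514, 13.6 and 9.06 CPM in WT saline, 9.12, 6.68 and 6.02 in WT ethanol, 2.54, 2.23 and 3.39 in KO saline, and 10.0, 4.11 and 3.36 in KO ethanol. The log2 fold change was -1.56 ± 0.70 (adjusted p = 0.239) in KO saline, although WT saline replicate 1, with 1 count, was the lowest of all libraries. Acta2 (chr19:34240336-34255373) was at 0.514, 1.84 and 12.4 CPM in WT saline, 14.5, 3.69 and 2.69 in WT ethanol, 2.28, 1.23 and 2.95 in KO saline, and 3.34, 4.58 and 2.22 in KO ethanol. WT saline replicate 3 and WT ethanol replicate 1 stood above the rest. Its log2 fold changes of 0.40 ± 0.84 (adjusted p = 0.827) in WT ethanol and -1.31 ± 0.86 (adjusted p = 0.406) in KO saline were not called.

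Col4a1 and Col4a2 encode the alpha 1 and alpha 2 chains of type IV collagen, which assemble into one molecule of the basement membrane. The genes lie head to head on chromosome 8, Col4a1 on the minus strand (chr8:11198423-11312826) and Col4a2 on the plus strand (chr8:11312805-11449287), so that their first exons overlap by 22 bases. This shared start (chr8:11312805-11312826, RefSeq on GRCm38.p6, the assembly of mm10) is shown because reads on these bases can be given to either gene unless strand is used. The stretch is printed 5′ to 3′ on the strand of each gene, and each line is the reverse complement of the other.
Col4a1: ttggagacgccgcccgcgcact
Col4a2: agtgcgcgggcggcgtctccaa
The fold changes of both genes had the same sign in every comparison of the fit with all 12 libraries and TMM factors. After removal of the length and GC trend described below, their signs differed in WT ethanol versus WT saline, at -0.46 ± 0.52 for Col4a1 and 0.03 ± 0.41 for Col4a2. Col4a1 was at 54.0, 68.2 and 27.0 CPM in WT saline, 166, 60.4 and 56.1 in WT ethanol, 82.7, 59.7 and 79.0 in KO saline, and 58.5, 87.3 and 80.5 in KO ethanol. Col4a2 was at 60.7, 22.4 and 16.8 CPM in WT saline, 143, 43.7 and 31.2 in WT ethanol, 62.7, 36.6 and 69.1 in KO saline, and 36.8, 78.0 and 72.9 in KO ethanol. WT ethanol replicate 1 was the highest library of both genes and WT saline replicate 3 the lowest. The log2 fold changes in WT ethanol were 0.93 ± 0.45 (adjusted p = 0.289) for Col4a1, which was called, and 1.15 ± 0.59 (adjusted p = 0.309) for Col4a2, which was not. Without WT ethanol replicate 1 the value for Col4a1 was 0.23. In KO saline the values were 0.57 ± 0.45 and 0.78 ± 0.59, with no call.

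The fibroblast genes gave the largest fold changes of the 33, and these rested on 1 library. Col1a1, Col1a2 and Col3a1 encode chains of the fibrillar collagens of types I and III, and Dcn and Lum the small proteoglycans decorin and lumican that bind collagen fibrils. Col3a1 (chr1:45311538-45349706) was at 6.17, 253 and 19.6 CPM in WT saline, 110.0, 16.5 and 17.8 in WT ethanol, 6.49, 6.62 and 14.3 in KO saline, and 10.0, 17.2 and 15.5 in KO ethanol. Lum (chr10:97565501-97572703) was at 0, 75.9 and 10.6 CPM in WT saline, 16.3, 4.74 and 4.45 in WT ethanol, 2.28, 0.644 and 4.43 in KO saline, and 1.67, 2.61 and 4.69 in KO ethanol. In both genes WT saline replicate 2 was the highest of the 12 libraries and WT saline replicate 1 the lowest.

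Dcn (chr10:97479500-97518163) was at 0, 250.3 and 39.0 CPM in WT saline, 52.6, 24.1 and 19.0 in WT ethanol, 5.09, 3.40 and 20.9 in KO saline, and 0, 24.9 and 20.6 in KO ethanol. Col1a2 (chr6:4505618-4541543) was at 5.14, 166 and 36.3 CPM in WT saline, 109, 18.4 and 23.6 in WT ethanol, 10.4, 7.96 and 24.3 in KO saline, and 15.04, 26.2 and 24.2 in KO ethanol. Col1a1 (chr11:94936224-94953042) was at 0, 42.6 and 8.25 CPM in WT saline, 47.6, 7.03 and 4.91 in WT ethanol, 3.33, 2.75 and 11.4 in KO saline, and 0, 10.0 and 8.56 in KO ethanol. A count of 0 allows up to 1.54 CPM in WT saline replicate 1 and up to 5.01 CPM in the library labelled KO ethanol replicate 1. WT saline replicate 2 and WT ethanol replicate 1 were the 2 highest libraries for all 5 fibroblast genes, which was so for 2 of the 18 endothelial genes and for none of the 8 mural genes. WT saline replicate 1 was the lowest for Col1a2, Col3a1 and Lum.

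In KO saline versus WT saline the log2 fold change was -3.58 ± 1.17 for Lum (adjusted p = 0.176), -3.35 ± 1.08 for Col3a1 (adjusted p = 0.176), -3.31 ± 1.29 for Dcn (adjusted p = 0.200) and -2.29 ± 0.92 for Col1a2 (adjusted p = 0.205). Col1a1 was not called, at -1.57 ± 1.14 (adjusted p = 0.451). The groups overlapped in all 5 genes, since WT saline replicate 1 lay at or below the KO saline libraries. Without WT saline replicate 2 the log2 fold change was -0.59 for Col3a1 (adjusted p = 0.762) and -1.32 for Lum (adjusted p = 0.588). Col1a1 turned to 0.22 without it. In WT ethanol versus WT saline the 5 values ran from -1.77 for Lum to 0.21 for Col1a1, with no call. Without WT saline replicate 2 all 5 were positive there, from 0.46 for Lum to 1.97 for Col1a1, again with no call.

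The calls of all classes depended on single libraries, as did those of all genes. Without WT saline replicate 2, 0 of 33 members were called in KO saline versus WT saline, in WT ethanol versus WT saline and for the interaction, beside 0.246%, 1.3% and 0.133% of all genes. Without WT saline replicate 1, the shallow library that lay lowest for most fibroblast genes, 16 members (48.5%) were called in KO saline versus WT saline beside 50.4% of all genes, 11 (33.3%) in WT ethanol versus WT saline beside 48.7%, and 14 (42.4%) for the interaction beside 33.8%. Without KO saline replicate 1 or KO saline replicate 2, and without WT ethanol replicate 1 or WT ethanol replicate 2, the count in the comparison that each enters with WT saline was 0 as well, beside 0.0599% of all genes in the KO saline cases and 0.476% and 5.54% in the WT ethanol cases. Fold changes moved unequally when WT saline replicate 2 was left out. In KO saline Esam was then at -1.01, Slc2a1 at -1.36 and Kdr at 1.01, within 0.1 of the values with it. Flt1 was at 0.68 in place of 0.97, Vtn at -1.38 in place of -1.94, Tagln at -1.01 in place of -1.56 and Ly6c1, as above, near 0.

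The fold changes of the members followed the length of their transcripts. Over the 33 genes, the Spearman correlation of length with the log2 fold change was 0.70 in WT ethanol versus WT saline, 0.53 in KO saline versus WT saline, -0.70 in KO ethanol versus KO saline, -0.44 in KO ethanol versus WT ethanol and -0.72 for the interaction. Over the 14531 tested genes with a known length it was 0.48, 0.54, -0.47, -0.34 and -0.60. The genes share the same 12 libraries, and these values are descriptions. Of the 11 members with a transcript under 2500 bases, all 11 had a negative value in KO saline versus WT saline, with a median of -1.31, and 10 were negative in WT ethanol versus WT saline, with a median of -0.74. Of the 11 members over 5000 bases, 7 and 9 were positive, with medians of 0.14 and 0.65. The short members include Esam, Ly6c1, Tagln, Vtn, Dcn and Lum, and the long ones Flt1, Kdr, Col4a1, Col4a2 and the 3 fibrillar collagen genes.

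When the dependence on transcript length and GC content was removed library by library, the calls of Flt1, Kdr, Ly6c1, Tagln and Dcn were lost in KO saline versus WT saline and that of Col1a1 was gained. The trend took 42.3% of the variance of the genes' deviations from their mean over the libraries in WT saline replicate 2 and 43.8% in KO saline replicate 2, against 6.27% to 25.3% in the other libraries. After its removal Flt1 was at 0.32 ± 0.46 and Kdr at 0.17 ± 0.47 in WT ethanol versus WT saline, and at 0.20 ± 0.46 and 0.25 ± 0.47 in KO saline, all without a call, and Col4a1 turned to -0.46 ± 0.52 in WT ethanol. Esam stayed called, at -0.93 ± 0.30 (adjusted p = 0.194) in WT ethanol and -0.97 ± 0.30 (adjusted p = 0.224) in KO saline. In KO saline Col3a1 was at -4.38 ± 1.14 (adjusted p = 0.182), and Col1a1, Col1a2, Lum, Slc2a1 and Vtn were also called, 7 members in all (21.2%) beside 10.9% of all genes. The median of the 33 genes was then -0.68 in KO saline, with 28 members below 0, beside -0.16 over all genes.

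**Figure D5:**
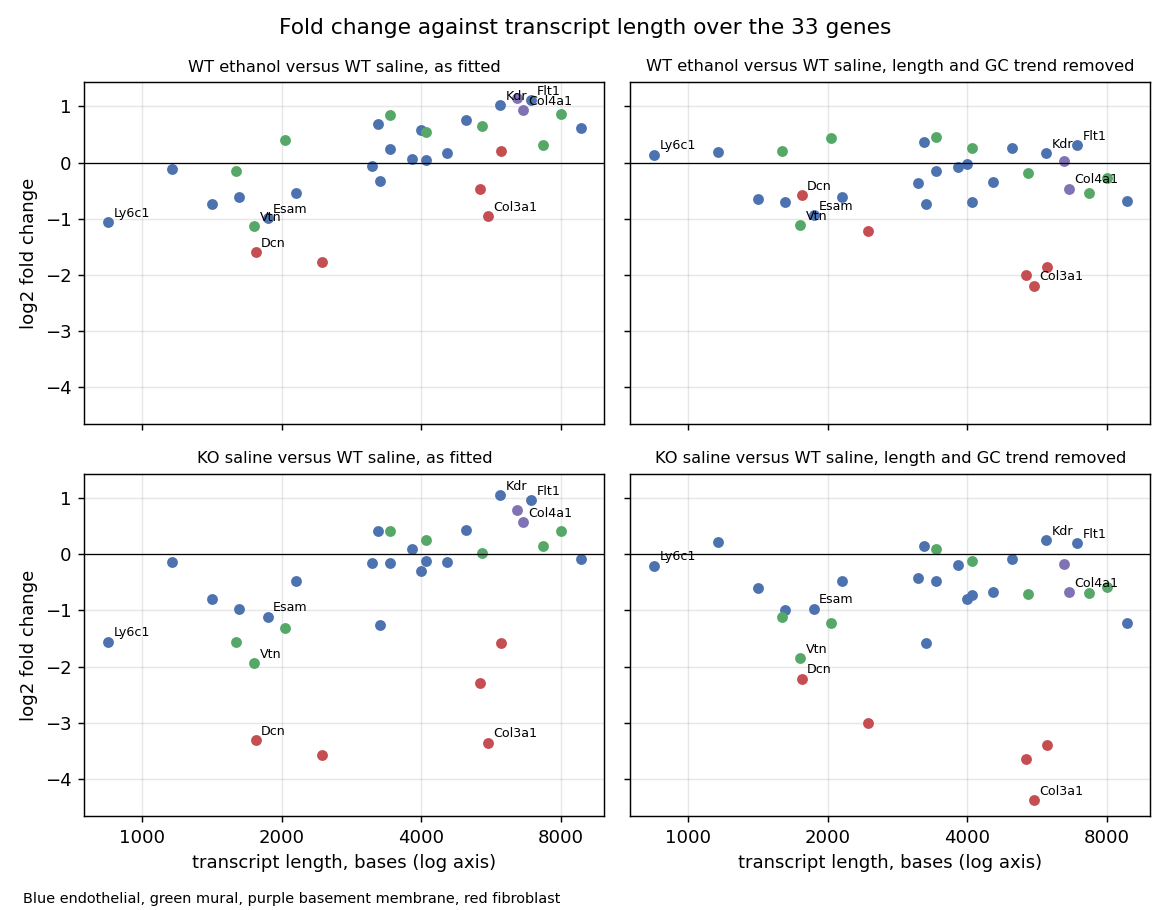
Log2 fold change of the 33 genes against transcript length (log axis), as fitted (left) and after removal of each library's length and GC trend (right), for both comparisons with WT saline. On the left Flt1, Kdr and Col4a1 sit at the long, positive end and Esam and Vtn at the short, negative end, and on the right Col3a1 lies lowest at -4.38 in KO saline.

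The median log2 fold change of the 33 genes was 0.18 in WT ethanol versus WT saline (0.06 over all genes), 0.36 in KO ethanol versus KO saline (0.01), -0.15 in KO saline versus WT saline (0.04), -0.31 in KO ethanol versus WT ethanol (-0.03) and 0.15 for the interaction (-0.11). The signs of 4 of these medians depended on the scale. After removal of the length and GC trend the median was -0.34 in WT ethanol versus WT saline (-0.16 over all genes) and 0.09 in KO ethanol versus WT ethanol (0.14), and without TMM factors it was 0.31 in KO saline versus WT saline (0.49) and -0.27 for the interaction (-0.52). In KO ethanol versus KO saline 25 of the 33 were positive, beside 7466 of 14739 genes, and 32 after removal of the trend. Without the library labelled KO ethanol replicate 1 it was 24, with a median of 0.27 (-0.01 over all genes). In KO ethanol versus WT ethanol 12 were positive, beside 6958 of 14739 genes, and 8 without that library. For the interaction 18 were positive, beside 6755 of 14739 genes. After removal of the trend it was 31, with a median of 0.73 (0.26 over all genes). The signs of all genes were not counted after removal of the trend, and that fit was not repeated without the library. By class, the medians in KO saline versus WT saline were -0.15 for endothelial, 0.09 for mural, 0.68 for basement membrane and -3.31 for fibroblast genes, and in WT ethanol versus WT saline 0.05, 0.47, 1.04 and -0.95. Without WT saline replicate 2 the fibroblast medians were -0.64 and 1.15, and the mural median in KO saline was -0.15. After removal of the trend the basement membrane medians were -0.42 in KO saline and -0.21 in WT ethanol, and the mural medians -0.70 and 0.01. The endothelial medians were then -0.48 and -0.25, but without TMM factors they were 0.34 and 0.51.

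Further genes of the same pathways, from lists of names, moved in both directions. The counts that follow stand beside 12.1% of all genes called higher and 10.4% lower in WT ethanol versus WT saline, and 12.4% and 13.4% in KO saline versus WT saline. Of 23 ligands and signaling genes of the vessels, 3 were called higher and 2 lower in WT ethanol versus WT saline, and 2 higher and 1 lower in KO saline versus WT saline. Vegfa, the ligand of Flt1 and Kdr, was called higher in both, by 1.31 ± 0.54 (adjusted p = 0.232) and 1.63 ± 0.54 (adjusted p = 0.177), and it is named here after its values were seen. Vegfb, a ligand of Flt1, was called lower in both, by -1.29 ± 0.45 and -1.30 ± 0.45. Nrp2, a VEGF and semaphorin co-receptor, was called higher, by 3.09 ± 0.99 and 2.12 ± 0.96, and Apln, the ligand of the apelin receptor, was lower by -1.15 ± 0.46 in WT ethanol. Of 29 further endothelial genes, 3 were called higher and 7 lower in WT ethanol, and 3 higher and 8 lower in KO saline. Erg, an endothelial transcription factor, was called higher in both (1.90 ± 0.61 and 1.44 ± 0.60), while Cd34 (-1.43 ± 0.51 and -0.97 ± 0.50), a surface sialomucin, and Itm2a (-1.90 ± 0.70 and -2.17 ± 0.71) were called lower.

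Of 13 tested further mural genes, 1 was called higher and 3 lower in WT ethanol, and the same numbers in KO saline. Higd1b, a pericyte marker, was called lower by -1.86 ± 0.58 and -2.37 ± 0.59, Ifitm1 was called lower by -2.02 ± 0.88 and -3.11 ± 0.92, and Myh11, the heavy chain of smooth muscle myosin, was called higher by 3.17 ± 1.01 and 2.15 ± 1.02. Of 13 further basement membrane genes, 2 were called higher in WT ethanol, Hspg2 (perlecan, 2.06 ± 0.70) and Lama5 (a laminin chain, 1.91 ± 0.75), while Lamb2 had 0.93 ± 0.58 without a call. In KO saline 1 of these 13 was higher and 1 lower. Of 22 tested further meningeal and fibroblast genes, 1 was called higher and 15 lower in KO saline (72.7%, beside 25.8% of all genes), and 1 higher and 5 lower in WT ethanol. Like those of the other lists, these counts come only from the fit with all 12 libraries. The sum of this list was highest in WT saline replicate 2. Without that library 0.0332% of all genes were called lower in KO saline, and the list was not counted for that fit. Crabp2, a retinoic acid binding protein, was called lower by -3.52 ± 0.92 in KO saline and -3.32 ± 0.93 in WT ethanol. Mgp (-3.02 ± 0.92 and -2.07 ± 0.89), matrix Gla protein, and Lox (-3.87 ± 1.07 and -2.31 ± 1.00), the enzyme that cross-links collagen, were called lower in both too. All 3 were highest in WT saline replicate 2, at 50.7, 103 and 57.3 CPM, against at most 13.1 CPM in any other library. None of the genes of these lists was called in KO ethanol versus KO saline or KO ethanol versus WT ethanol.

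Lists of the other cell types of the cortex were counted in the same way, beside the same shares of all genes. Of 12 neuronal genes, 4 were called higher and 1 lower in WT ethanol, and 3 higher and 1 lower in KO saline. Of 10 astrocyte and radial glia genes, 1 was higher in WT ethanol and 1 lower in KO saline, and of 9 oligodendrocyte lineage genes 1 and 2 were higher. Of 11 microglial genes, 5 were called lower in WT ethanol and 6 in KO saline. All 7 tested red blood cell genes were called lower in both. Hbb-bt and Hbb-b2 had identical fold changes (-3.05 in WT ethanol), and those of Hba-a1 and Hba-a2 were nearly identical (-2.86), so the 7 are not separate measurements. Of 10 choroid plexus genes, 4 were called higher in WT ethanol and 2 in KO saline. The part of these tissues in the fold changes of the vascular genes was not tested.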

How the data were processed

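Counts of RefSeq transcripts were estimated by the authors in Partek Flow from stranded reads filtered by quality score and aligned to mm10 with Bowtie2 within TopHat. These deposited estimated counts are not scaled, and whether counting used strand is not given in the sources used here. The deposited RPKM values came from the same quantification, and 99.7% of their sorted ranks coincided between libraries within 0.1%, so the values share one distribution. Counts were summed per symbol, rounded and fitted in edgeR 4.0.16 (R 4.3.3) with its default filter, TMM factors and 1 mean per group, with two-sided tests and Benjamini-Hochberg adjustment, and the standard error was derived from the F statistic. The members and lists were chosen with earlier results of these data known. By rule, values of every library were given for members called in any contrast and for Cldn5, Pdgfrb, Acta2, Col4a1 and Col1a1, and for other lists the 3 genes with the smallest p in WT ethanol versus WT saline. Groups came from the labels, and replicate numbers, given in accession order, only name libraries. Alternatives used DESeq2 1.42.0 and limma 3.58.1, other scalings, filters and library sets, and splines with 5 degrees of freedom for length and GC content, known for 98.6% of the genes tested. Promoter sequences matched 22 members. Laser microdissection and hole-punch collection could not be assigned to libraries. Intervals for counts of 0 cover counting error only (3 counts).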

Additional observations from a re-analysis of the deposited data

Results flagged for a closer look

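Esam and Vtn were flagged because the effect of ethanol differed between genotypes in a test of the difference itself, the Genotype x Treatment interaction of the edgeR model, at the study's adjusted level of 0.30. The interaction of Esam was 1.35 on the log2 scale (adjusted p = 0.258), with ethanol minus saline at -0.99 ± 0.34 in WT and 0.36 ± 0.34 in KO libraries (0.23 ± 0.34 without the library labelled KO ethanol replicate 1). The interaction of Vtn was 2.19 (adjusted p = 0.287), with -1.14 ± 0.63 in WT and 1.05 ± 0.64 in KO libraries (0.49 ± 0.66 without it). Both interactions lost the call without it, when 0.233% of all genes were called in place of 11.1%. Neither passed an adjusted p under 0.05. Over the alternatives the interaction ran from 0.83 to 1.57 for Esam and from 1.25 to 2.74 for Vtn, and it was called in 8 and 9 of 24 alternatives.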

How the results depend on the processing

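The 17 fold changes of called members kept their sign under every alternative that could be computed, except that Col4a1 in WT ethanol versus WT saline turned to -0.46 after removal of the length and GC trend and to -0.23 with the first 3 characters of the title as a covariate, and each lost the call in 5 or more alternatives. The number of called members moved more, and so did the share of all genes called, which is given in brackets. In WT ethanol versus WT saline (4 members, beside 22.5% of all genes) it was 10 without TMM factors (27.5%) and 2 with at least 1 count in any library (16.1%). It was 0 with limma on log2(RPKM + 1) (2.42%) or log2(RPKM + 0.1) (1.26%), and 0 in a fit of only the groups compared (0.278%). The number was 13 without the 2 libraries named with L (55.4%) and 1 with the length and GC trend removed (16.1%). With single libraries left out it ran from 0 to 11 (0.476% to 48.7%). In KO saline versus WT saline (11 members, beside 25.8%) it was 3 with at least 10 counts in every library (35.5%), which only 13 members had. It was 1 with limma under either pseudocount (2.84% and 1.74%) and 17 without the L libraries (56.4%). A fit of only the groups compared gave 7 (18.1%), as did removal of the trend (10.9%). With single libraries left out it ran from 0 to 16 (0.0599% to 50.4%). For the interaction (2 members, beside 11.1%) it was 6 with DESeq2 (18.1%) and 1 with at least 1 count in any library (6.28%). It was 5 of 13 members with at least 10 counts in every library (24.5%) and 11 without the L libraries (28.9%). The number was 0 with limma under either pseudocount (0.109% and 0.0339%). It was 0 as well with the first letter of the name as a covariate (0%) or with the trend removed (0.186%). With single libraries left out it ran from 0 to 14 (0% to 33.8%). Without WT saline replicate 2 and WT ethanol replicate 1 together, an alternative chosen after seeing the data, 0 members were called in each comparison (at most 0.249%). In KO ethanol versus KO saline and in KO ethanol versus WT ethanol the number of called members was 0 under every alternative (at most 0.0333%). Without TMM factors, the groups did not overlap for 6 members in WT ethanol versus WT saline (2 with them), 3 in KO ethanol versus KO saline (1) and 0 in KO ethanol versus WT ethanol (1). The share of all genes was counted only with TMM factors, at 19.6%, 10.8% and 12.7%. The counts without them therefore cannot be set against all genes and are not read as a result about the members. As the mean over genes of log2(CPM + 1), the difference of KO saline from WT saline was -0.13 in place of -0.41 for the endothelial list and 0.33 in place of -0.22 for the neuron list. The causes were not tested. Groups of 3 libraries and 2 shallow libraries limit what could be called. No paired analysis was possible because the labels give the groups no replicate numbers. Titles that open with PM1 occur in both WT groups (1 saline, 2 ethanol), and 2 KO saline titles share PJ1, but the labels do not say what this part of a title stands for. With the first 3 characters as a covariate, chosen after seeing the data, WT ethanol versus WT saline rests on these 3 WT libraries, with 2 residual degrees of freedom, and 14 members were called beside 52.6% of all genes.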
